A study of Homo sapiens with 18 samples.

Results

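Of 13821 chromatin sites that V5-tagged EHMT1 gained in LNCaP cells when both of its neighbouring methylated lysines were replaced by arginine (K450RK451R), 327 (2.37%) also lay under a peak of dimethylated lysine 9 of histone H3 (H3K9me2) in at least 1 cell line of the study. These 327 sites, called members here, were selected on measured values. A site was gained when its V5 peak in the double mutant line overlapped no V5 peak of the other 3 lines by 1 bp or more, and it was kept when it overlapped an H3K9me2 peak of any of 4 lines, on chromosomes 1 to 22 and X. The presence of a V5 peak in the double mutant, its lack elsewhere and the presence of H3K9me2 are thus given by the choice and are no findings. The whole series held 22458 peaks in 9 lists.

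LNCaP is an androgen-responsive prostate cancer cell line. Stable lines were made with lentivirus of the tetracycline-inducible vector pLIX_403 under puromycin selection, and each carried V5-EHMT1 as the wild-type protein (WT), as K450R, as K451R or as K450RK451R. All 4 lines received doxycycline at 0.5 µg/ml for 2 days before ChIP for V5 or for H3K9me2, while the EHMT1 antibody was used on parental LNCaP cells, which carried no construct. The labels gave 18 samples in 9 groups of 2 replicates, but each group had 1 peak list, so no value below has a replicate error and no difference between lines could be tested. The labels name no removal of the endogenous EHMT1 from the lines. Estimated reads of the lists ran from 8.79 M (M, mega) to 27.6 M, and both ends of this range were H3K9me2 lists, of K450RK451R and K451R respectively. Of the V5 lists, K450RK451R had 22.7 M, K451R 14.1 M, K450R 11.1 M and WT 8.84 M. The lowest −log10 p-value in these V5 lists was 3.99, 5.48, 5.89 and 6.57 in the same order. The part of V5 depth and of these lower limits in the number of gained sites was not tested.

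EHMT1, also called GLP, works with its partner EHMT2 (G9a) to place H3K9me1 and H3K9me2, marks of repressed chromatin. H3K9me2 lies in broad domains over silent parts of chromosome arms and, with H3K9me3, over satellite repeats around centromeres and near chromosome ends. EHMT1 binds the mark that it writes through its ankyrin repeats.

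Sequences at 6 members show what kinds of DNA the sites held. Each is a stretch of 101 bases of the hg19 (GRCh37) reference, plus strand, centred on the V5 summit. In the ZDHHC20 and chr2:89831627 stretches, the capitals mark the leading repeat unit of 42 and of 49 bases. In the chr17:25266957 stretch they mark every CATTC as it reads from the opposite strand. In the last 3 they mark the 5 bases at the summit. ZDHHC20 is shown as the member with the highest V5 −log10 q, chr2:89831627 and chr17:25266957 for the satellite repeats, chr10:42396381 and CDC27 as sites marked in all 4 lines, and FOXA1 as a site in coding sequence.
ZDHHC20 intron 12, chr13:21951441-21951541: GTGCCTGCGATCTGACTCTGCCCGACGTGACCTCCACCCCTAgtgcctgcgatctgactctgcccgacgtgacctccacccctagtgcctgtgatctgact
49-base repeat, chr2:89831627-89831727: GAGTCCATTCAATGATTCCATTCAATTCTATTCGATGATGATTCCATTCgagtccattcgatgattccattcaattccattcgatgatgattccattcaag
CATTC satellite, chr17:25266957-25267057: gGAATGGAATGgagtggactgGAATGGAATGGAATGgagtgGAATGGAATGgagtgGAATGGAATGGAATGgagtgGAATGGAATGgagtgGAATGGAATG
centromere flank, chr10:42396381-42396481: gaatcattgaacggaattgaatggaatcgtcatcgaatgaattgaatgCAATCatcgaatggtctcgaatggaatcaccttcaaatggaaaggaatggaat
CDC27 exon 14, chr17:45214505-45214605: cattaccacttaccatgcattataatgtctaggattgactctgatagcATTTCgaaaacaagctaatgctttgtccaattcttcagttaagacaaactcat
FOXA1 exon 2, chr14:38061224-38061324: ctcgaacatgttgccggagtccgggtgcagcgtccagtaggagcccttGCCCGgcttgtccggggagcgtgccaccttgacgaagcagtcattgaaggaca

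The mark was most often called in the K451R line. H3K9me2 peaks of that line covered 238 members (72.8%, 95% Wilson interval 67.7% to 77.3%), those of the K450RK451R line 131 (40.1%, 34.9% to 45.5%), those of the K450R line 82 (25.1%, 20.7% to 30%) and those of the WT line 63 (19.3%, 15.4% to 23.9%). Intervals here and below cover counting error only, and neighbouring peaks are not independent. Of all gained sites, the same lists covered 1.72%, 0.948%, 0.593% and 0.456%, and since the rule used these lists, nothing is read from the higher shares among members. The estimated reads of these lists, which rest on an assumed read extension, were 27.6 M for K451R, 17.9 M for WT, 14 M for K450R and 8.79 M for K450RK451R. The part of depth in the number of calls was not tested.

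Most members carried the mark in a single line. There were 200 such members (61.2%), 75 with the mark in 2 lines, 44 in 3 lines and 8 in all 4. K451R alone accounted for 119 members and K450RK451R alone for 55, whereas K450R alone accounted for 16 and WT alone for 10. Among combinations, K451R with K450RK451R came most often with 30 members, followed by K450R with K451R with 22. How often H3K9me2 peaks in general were called in a single line was not counted. In the line that expressed the double mutant itself, 196 members had no H3K9me2 peak although the V5 peak was called there. Of the 773 double mutant sites that another V5 list shared, 567 (73.4%) had an H3K9me2 peak of that line, against 40.1% of members.

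**Figure D1:**
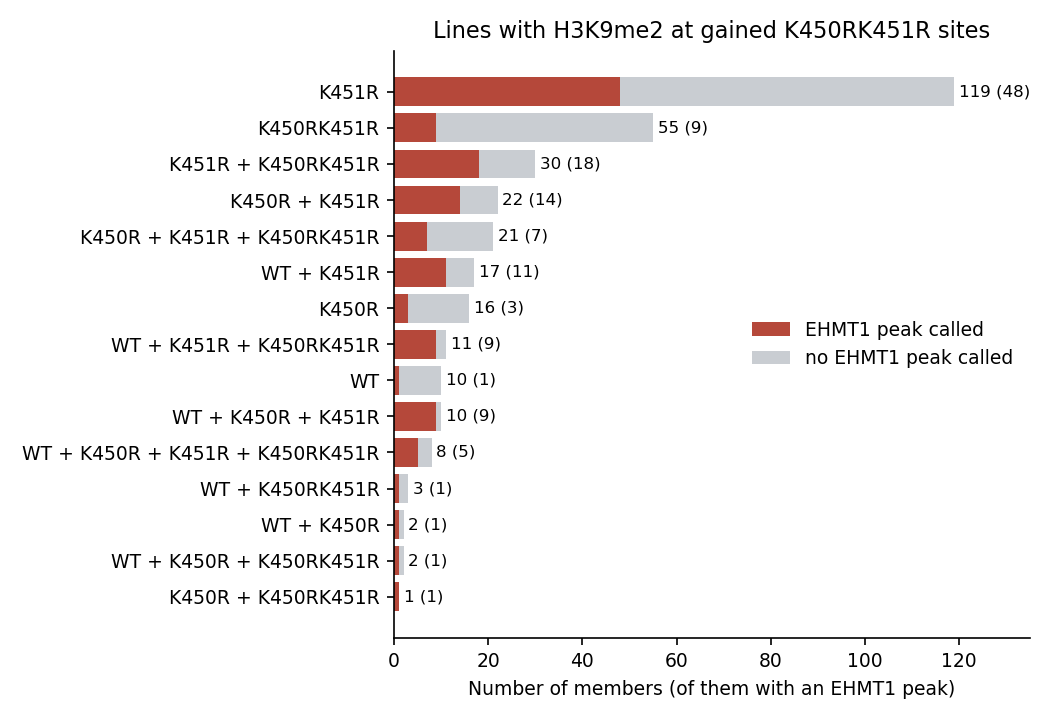
Number of members for each combination of lines with an H3K9me2 peak (y axis), split by whether an EHMT1 peak of parental cells was also called (red) or not (grey). The K451R line alone holds 119 members, 48 of them with EHMT1, and the K450RK451R line alone 55, 9 of them with EHMT1.

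The H3K9me2 peaks at members were of moderate height and had a lower −log10 q than their lists as a whole. Fold enrichment is the read pileup at a summit over that of its surroundings, with a constant added to both. Its median was 6.76 in the K450RK451R line, 6.33 in K450R, 6.01 in WT and 5.77 in K451R. The corresponding medians over each whole list were 6.9, 6.94, 6.97 and 6. The estimated genome background was 0.325, 0.517, 0.663 and 1.02. With the added constant, fold enrichments of different lines are thus not on the same scale. In the same order, the median −log10 q was 6.97, 7.04, 7.59 and 8.62 at members. Over each whole list it was 11.4, 13.3, 14.1 and 13.6. The strongest mark at a member had a fold enrichment of 19.7, in the K451R line at chr9:69710658-69710809. This site lay 299799 bp from a smaller gap and 75 bp from a peak of another V5 list. The mark's peak ran from 69710701 to 69711370, past the V5 peak, and overlapped it by 109 bp. V5 and H3K9me2 summits lay close together, with median distances of 13.5 bp for K451R, 14 bp for WT and K450R and 21 bp for K450RK451R, and 307 V5 summits (93.9%) fell inside an H3K9me2 peak. Whether an input control was used is not given in the sources used here, so close summits are not read as joint binding.

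V5 peaks at members stood higher than at most gained sites. The median V5 fold enrichment was 5.74 (range 1.6 to 14.6) at members and 4.89 at the 13494 gained sites without H3K9me2. The median −log10 q, the minus logarithm of the peak caller's q-value, was 8.11 against 2.93. Of the 242 gained sites with a −log10 q of at least 10, 121 (50%) were members, against 74 of the 12159 sites (0.609%) with a value under 5. All WT V5 peaks had a −log10 p of at least 6.57, a level that 317 members (96.9%) and 6922 other gained sites (51.3%) also reached. These V5 values come from the list that chose the sites and are given as a description.

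At the edge of the rule, the smallest overlap with an H3K9me2 peak was 11 bp, at chr22:50467665-50467793 with a V5 fold enrichment of 4.46. The next smallest was 52 bp, at chr5:17632229-17632532 with a fold enrichment of 5.31. Just outside, a gained site at chr20:29518346-29518566 with a V5 fold enrichment of 4.58 missed an H3K9me2 peak by 16 bp, and 167 gained sites without the mark had an H3K9me2 peak within 1 kb. On the V5 side, the member nearest to a peak of another V5 list lay 60 bp from it, at chr4:49514569-49514668, and 86 members (26.3%) lay within 1 kb of such a peak. These 86 members were gained by the rule but lay beside a V5 peak of another line.

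EHMT1 of parental cells, which the rule did not use, was called at 138 members (42.2%, 95% interval 37% to 47.6%). It was called at 1.99% of all gained sites and at 137 of the 13494 gained sites without H3K9me2 (1.02%, 0.86% to 1.2%). The members were 50.2% of the 275 gained sites with an EHMT1 peak. At sites that another V5 list shared, called conserved, EHMT1 was found at 713 of 773 (92.2%, 90.1% to 93.9%), so that members lay between both kinds of site. The intervals of the 3 groups did not overlap.

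V5 height and place moved with this difference, and it was also seen within each class of both. Among sites with a V5 −log10 q of at least 10, EHMT1 was called at 64 of 121 members (52.9%, 44% to 61.6%) and at 32 of 121 other gained sites (26.4%, 19.4% to 34.9%). Under 5, it was called at 20 of 74 members (27%, 18.2% to 38.1%) and at 58 of 12085 others (0.48%, 0.371% to 0.62%). The distance between members and others was thus smallest in ratio among the highest V5 peaks.

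EHMT1 was more frequent at members marked in more than 1 line. It was called at 61 of the 200 members marked in 1 line (30.5%, 24.5% to 37.2%) and at 77 of the 127 marked in 2 or more (60.6%, 51.9% to 68.7%). With 2, 3 and 4 lines, EHMT1 was called at 46 of 75 (61.3%), 26 of 44 (59.1%) and 5 of 8 (62.5%). Members marked in K450RK451R alone had it at 9 of 55, those marked in K451R alone at 48 of 119. The lines alone thus differed in their EHMT1 share as well as in their number. The median fold enrichment of the EHMT1 peaks at members was 5.61, against 6.95 over the whole EHMT1 list. The V5 and EHMT1 summits lay a median of 9 bp apart, which is likewise not read as joint binding.

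The highest EHMT1 peak at a member had a fold enrichment of 20.1 and lay at chr9:69710658-69710809, where the V5 fold enrichment was 4.93 and where K451R alone carried the mark. That EHMT1 peak ran from 69710706 to 69711369, past the V5 peak, and a peak of another V5 list lay 75 bp from the member. This member was followed by one in intron 14 of CDC27 (14.2), one in a lncRNA gene on chromosome 21 (12.1), UBTD1 intron 1 (11.9) and a site on chromosome 12 (11.4). All 5 had the mark in the K451R line and none in the K450RK451R line. These 5 were not the members with the highest V5 peaks, apart from UBTD1.

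**Figure D2:**
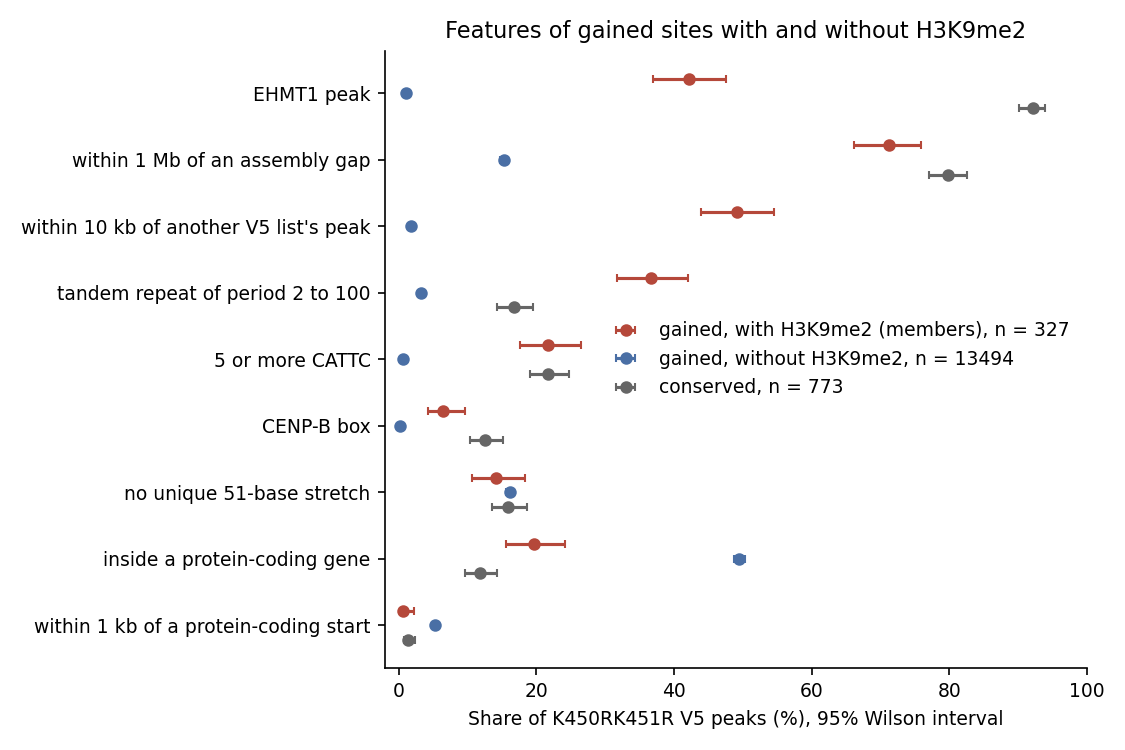
Share of K450RK451R V5 peaks (x axis, percent, with 95% Wilson intervals) with each feature, for members (red), gained sites without H3K9me2 (blue) and conserved sites (grey), the last not shown for the distance to another V5 list, which defines them. Members lie apart from other gained sites for EHMT1 (42.2% against 1.02%) and assembly gaps (71.3% against 15.3%), but not for the share without a unique stretch (14.1% against 16.2%).

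Members gathered beside centromeres and chromosome ends. Within 1 Mb of a gap of at least 10 kb in the assembly lay 233 members (71.3%, 66.1% to 75.9%), against 15.3% of gained sites without H3K9me2 (14.7% to 15.9%) and 79.9% of conserved sites. Of these, 149 (45.6%) flanked an internal gap of at least 1 Mb, as centromeres commonly have in this build, 39 lay within 1 Mb of a chromosome end and 45 near a smaller gap. On acrocentric chromosomes, such as 21 and 22, that gap also takes in the short arm. The remaining 94 (28.7%) are called elsewhere. By place, 23.7% of all gained sites beside large internal gaps were members, against 0.816% of those elsewhere.

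The largest cluster held 26 members in 556 kb of chromosome 4 (chr4:49093968-49650400), 14 of them with CATTC repeats. Others were 13 members in chr16:33237871-34184166, 11 each in chr10:42371187-42794899 and chr21:9698575-11085653, and 10 in chr2:91596904-92324193. At a distance of 1 Mb, the 327 members fell into 150 groups, 98 of which were single members. Members in these clusters are close neighbours and not independent of each other.

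**Figure D3:**
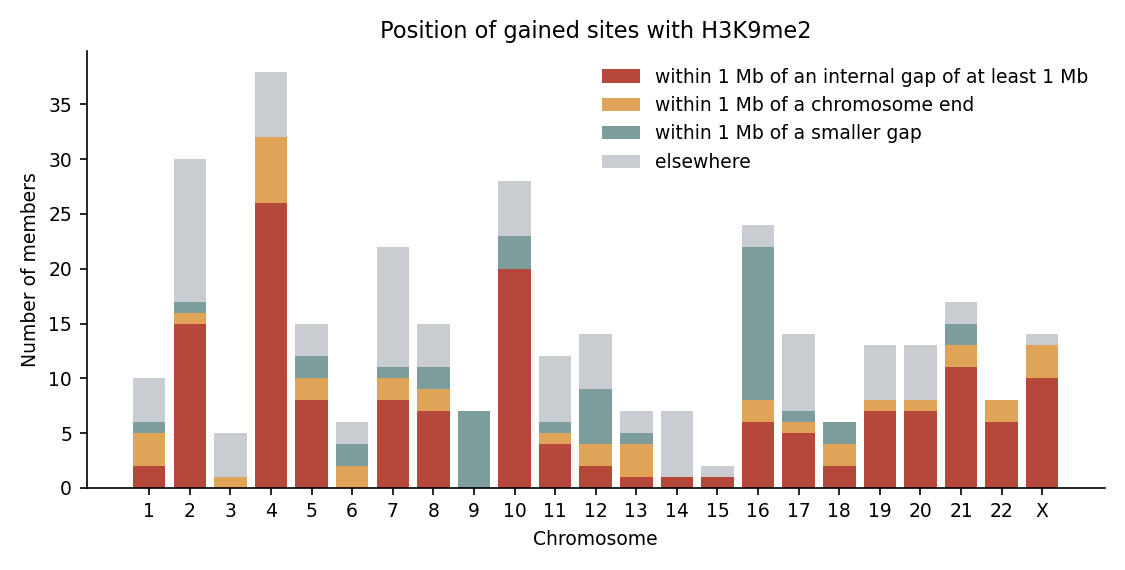
Number of members on each chromosome (y axis), split by place. Chromosome 4 has 38 members, 26 of them beside its large internal gap, while chromosome 14 has 7, 6 of them away from any gap.

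The place went with the EHMT1 overlap. EHMT1 was called at 83 of 149 members beside a large internal gap (55.7%, 47.7% to 63.4%), at 17 of 39 near a chromosome end (43.6%), at 16 of 45 near a smaller gap (35.6%) and at 22 of 94 elsewhere (23.4%, 16% to 32.9%). H3K9me2 in the K450RK451R line was called at 32.2% of members beside a large internal gap, at 59% near chromosome ends and at 47.9% elsewhere. The EHMT1 share was thus lowest where members lay far from gaps. Other gained sites had EHMT1 at 7.9% beside large internal gaps, 0.58% near chromosome ends, 1.12% near smaller gaps and 0.727% elsewhere.

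Many members lay close to a V5 peak of another line. Such a peak was within 10 kb of 161 members (49.2%), against 239 other gained sites (1.77%). EHMT1 was called at 92 of these 161 (57.1%) and at 46 of the 166 members farther away (27.7%), while for other gained sites the shares were 17.2% and 0.724%. A further 95 members (29.1%) had no peak of another V5 list within 1 Mb.

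Repeated DNA was common at members. A tandem repeat, counted when at least 80% of the bases in the 201 around the summit matched the base 2 to 100 positions on, was found at 120 members (36.7%, 31.7% to 42%), at 437 other gained sites (3.24%, 2.95% to 3.55%) and at 16.7% of conserved sites. Units of 2 to 9 bases made up 44 of the 120 and longer units 76. At least 5 copies of CATTC, the unit of satellites II and III, stood at 71 members (21.7%), against 0.556% of other gained sites and 21.7% of conserved sites. The CENP-B box, the motif of alpha satellite that the centromere protein CENP-B binds, was found at 21 members (6.42%), against 0.141% of other gained sites and 12.5% of conserved sites. All 21 lay within 10 kb of another V5 peak and 15 had EHMT1. At least 3 copies of TTAGGG, the telomere unit, stood at 10 members (3.06%), against 0.0963% of other gained sites and 1.16% of conserved sites.

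Many members nevertheless held unique sequence. Of the 151 stretches of 51 bases in each window, none was unique in the genome at 46 members (14.1%, 10.7% to 18.3%). This was close to the 16.2% of other gained sites and the 15.9% of conserved sites. At 200 members (61.2%) at least 1 in 2 of the stretches was unique, against 42.2% of other gained sites and 59.1% of conserved sites. The median GC content was 49.5% at members and 56.7% at other gained sites. The RE1 string is TCAGCACC and GGACAG with 2 bases between them and up to 2 mismatches on either strand. It was in none of the 327 windows, which allows a share of up to 0.917%. Of other gained sites 0.941% had it, and of conserved sites 1.42%.

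Repeats of ACC at members are described here, a feature chosen after its values were seen. The calls by line were used by the rule, so the counts by line are no findings. All 20 members with a 3-base tandem repeat had a unit of the ACC kind, counted in any frame and on either strand. H3K9me2 was called in the K450RK451R line at all 20, at 12 in K451R, at 5 in K450R and at 3 in WT. In 8 it was called in the K450RK451R line alone, and these became members through that list only. None had an EHMT1 peak, which with 20 sites allows a share of up to 15%, and none lay within 10 kb of another V5 peak. Their V5 fold enrichment ran from 4.04 to 13.4 with a median of 7.13, and that of the K450RK451R mark from 5.52 to 13.7 with a median of 8.67.

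The 20 sites lay on 12 chromosomes, and 12 of them were in the introns or bounds of 10 protein-coding genes, namely GALR1, MAN2B2, NT5C2, NTN5, PPP2R2C, PRDM15, PRKCA, RTEL1, SPATA3 and TMEM178B. Such a repeat was at 6 of the 13494 other gained sites and at none of the 773 conserved sites. Over whole lists, the repeat was at 21 of 833 H3K9me2 summits of the K450RK451R line (2.52%, 1.65% to 3.82%). It was at 12 of 1133 in K451R (1.06%, 0.607% to 1.84%), 7 of 740 in K450R (0.946%, 0.459% to 1.94%) and 4 of 709 in WT (0.564%, 0.22% to 1.44%). The K450RK451R interval overlapped those of K451R and K450R. The intervals count peaks within 1 list per line, so no difference between lines was tested, that from WT included. Among V5 summits it was at 26 of 14594 in K450RK451R (0.178%, 0.122% to 0.261%), at 1 of 780 in K451R (0.128%, 0.0226% to 0.723%) and at none of 581 in K450R and 594 in WT, which allows shares of up to 0.516% and 0.505%. Differences between the V5 lists were likewise not tested. Of the EHMT1 summits, 1 of 1626 had it (0.0615%).

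**Figure D4:**
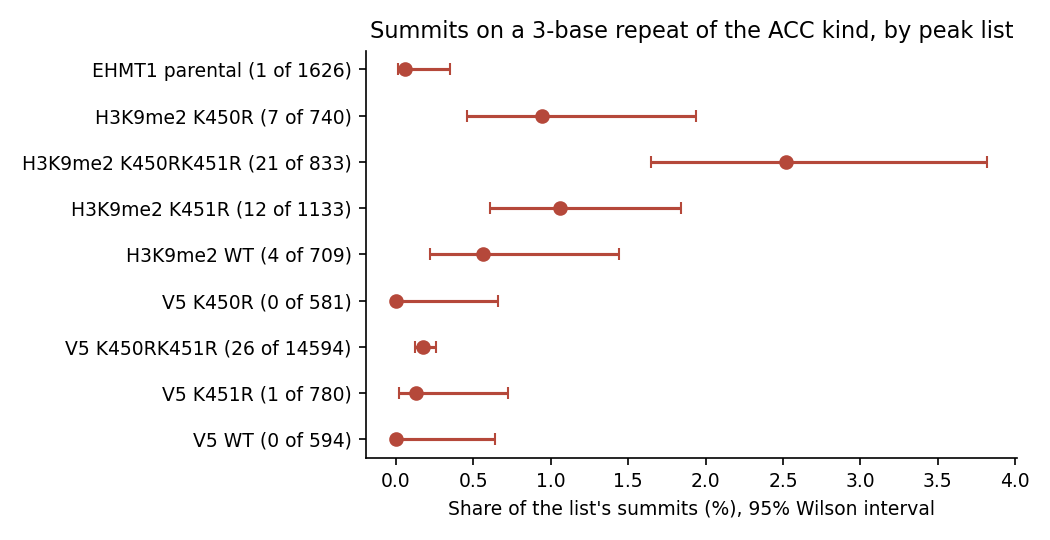
Share of the summits of each list on chromosomes 1 to 22 and X (x axis, percent, with 95% Wilson intervals) that lie on a 3-base tandem repeat of the ACC kind. The H3K9me2 list of the K450RK451R line has the highest share (21 of 833), and the WT and K450R V5 lists have none. Its interval overlaps those of the K451R and K450R H3K9me2 lists, and no difference between lines was tested.

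H3K9me2 calls at members away from gaps with a tandem repeat were counted for the line of the double mutant only. Of the 45 members elsewhere with any tandem repeat, 34 (75.6%, 61.3% to 85.8%) had H3K9me2 in the K450RK451R line and 4 (8.89%, 3.51% to 20.7%) had EHMT1. All 20 ACC repeats had that mark, and those outside the 9 near gaps are part of these 34. The rule used the calls by line, and the other lines were not counted for these 45, so this share does not set the K450RK451R line apart. Over all 120 tandem repeats the shares were 58.3% and 32.5%, and over the 207 members without one 29.5% and 47.8%. Of the 120, 30 were marked in K450RK451R alone and 29 in K451R alone. Near gaps, where 11 of the 12 members with repeats of 5 bases and all 8 with repeats of 49 bases lay, EHMT1 was more frequent over all members (49.8% against 23.4% elsewhere).

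The member with the highest V5 −log10 q lay in intron 12 of ZDHHC20, a protein palmitoyltransferase (chr13:21951377-21951827). Its V5 fold enrichment was 13.4, and H3K9me2 was called in all lines, with fold enrichments of 9.58 in WT, 6.32 in K450R, 8.72 in K451R and 7.1 in K450RK451R. EHMT1 had a fold enrichment of 7.11. This 42-base repeat thus had a peak in each of the lists for H3K9me2 and EHMT1. Of the 151 stretches of 51 bases in its window, 9 were unique in the genome.

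Other members with the highest V5 peaks lay in genes of varied function. UBTD1 intron 1 had V5 at 11.1-fold and the mark at 15.6-fold in K451R and 6.97-fold in K450R, with EHMT1 at 11.9-fold. GAS6, the ligand of the AXL receptor family, had V5 at 11.5-fold in intron 12, the mark at 7.84-fold in K450R, 6.93-fold in K451R and 6.52-fold in K450RK451R, and EHMT1 at 8.53-fold. NXN, a thioredoxin family protein, had V5 at 11.2-fold in intron 1 and the mark in every line but K450RK451R. These 3 thus had the mark in different sets of lines, and all had EHMT1. Of 151 stretches, 57 were unique at UBTD1, 28 at GAS6 and 141 at NXN.

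GALR1, a receptor of the neuropeptide galanin, had V5 at 13.4-fold in intron 1. The mark there was 13.1-fold in K450RK451R, 8.76-fold in K451R and 6.98-fold in K450R. PDCD6-AHRR, a readthrough gene that takes in the aryl hydrocarbon receptor repressor AHRR, had V5 at 11.6-fold in intron 4, the mark at 12.5-fold in K450RK451R, 7.35-fold in K451R and 7.02-fold in K450R. At both genes the fold enrichment of the mark was highest in the K450RK451R line, but fold enrichments of different lines are not on the same scale. Neither WT H3K9me2 nor EHMT1 was called. Of the 151 stretches of 51 bases, 84 were unique in the genome at GALR1. At PDCD6-AHRR, an 87-base repeat, 0 were unique.

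Outside genes, a site on chromosome 21 beside a large gap (chr21:9698575-9698747) had the next highest V5 −log10 q at only 4.27-fold over a high local background, 82 bp from another V5 peak. The highest V5 fold enrichment of any member, 14.6, was at chr19:57454238-57454399, with the mark in WT (9.14-fold) and K451R (10.4-fold) and no EHMT1. The member chr18:71871942-71872086 had V5 at 13-fold and the mark in K451R alone.

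The 8 members marked in all 4 lines were ZDHHC20, RTEL1, ATP10A, RASA3, CDC27 exon 14 and sites on chromosomes 5, 6 and 10. RTEL1, a helicase that protects telomeres, had V5 at 7.89-fold and the mark at 8.78-fold in WT, 9.44-fold in K450R, 10.3-fold in K451R and 11.6-fold in K450RK451R. The chromosome 10 site, beside the centromere, had between 2.45-fold and 2.84-fold in all 6 lists. EHMT1 was called at 5 of the 8 and not at RTEL1, ATP10A (a phospholipid flippase) or RASA3 (a Ras GTPase-activating protein). Unique stretches numbered 145 of 151 at RTEL1, 24 at ATP10A and 2 at RASA3.

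**Figure D5:**
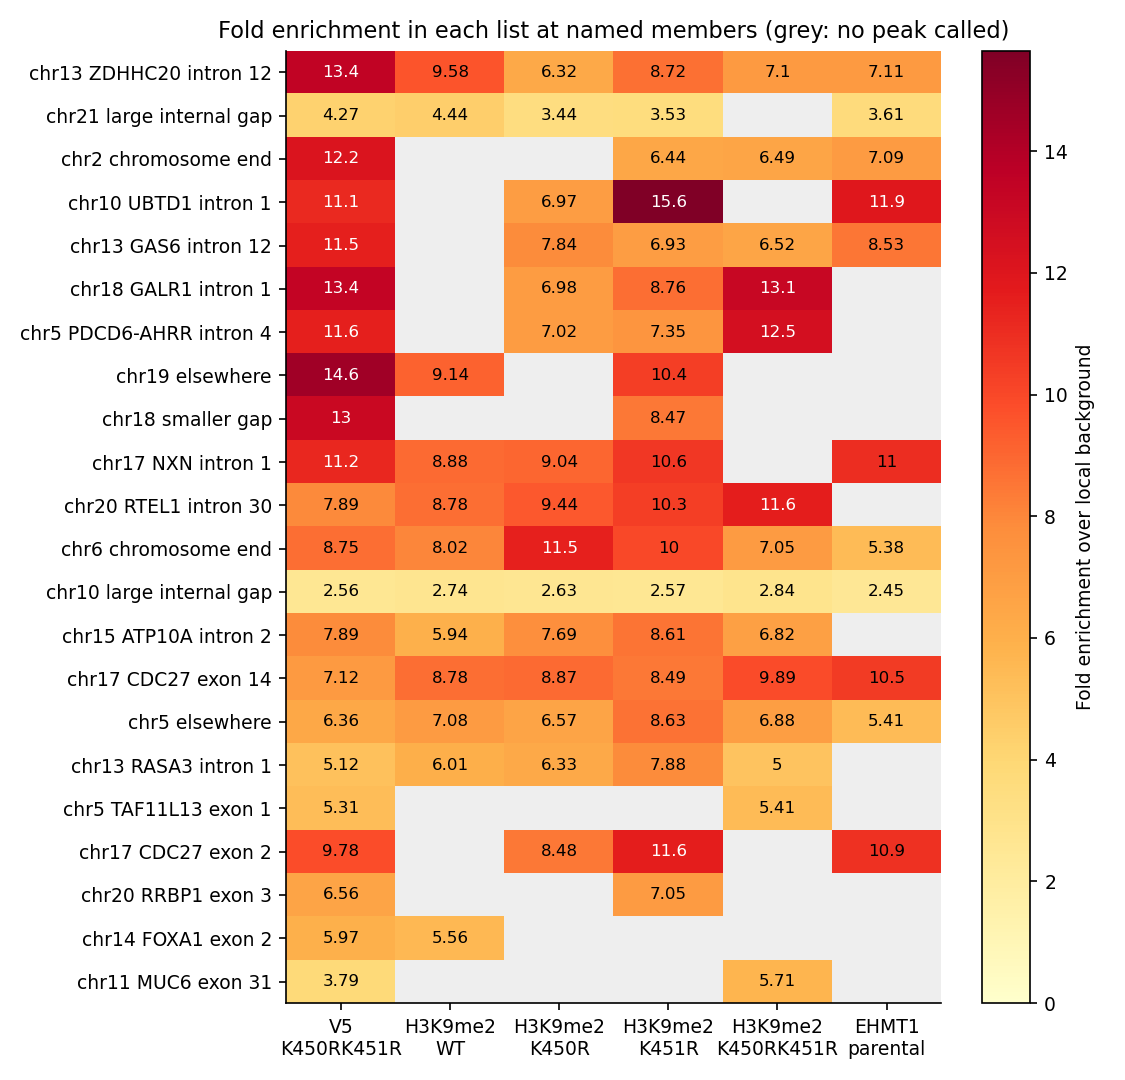
Fold enrichment over local background (colour and number) of the V5 peak, the H3K9me2 peaks of the 4 lines and the EHMT1 peak at the 10 members with the highest V5 −log10 q, the members marked in all lines and those in exons (rows), with grey where no peak was called. ZDHHC20 is filled in all 6 columns, whereas FOXA1 exon 2 has the mark in WT only.

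Members were scarce in and near genes. Inside protein-coding genes lay 64 members (19.6%, 15.6% to 24.2%) in 60 genes, against 6679 other gained sites (49.5%, 48.7% to 50.3%) and 11.8% of conserved sites. Within 1 kb of a protein-coding start lay 2 (0.612%, 0.168% to 2.2%), against 715 other gained sites (5.3%, 4.93% to 5.69%) and 10 conserved sites (1.29%). Of the members outside protein-coding genes, 29 lay in lncRNA genes, 3 in pseudogenes and 231 in no annotated gene.

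Both sites near a start were in regions with few unique stretches or near other V5 peaks. One was 163 bp from the start of TAF11L13, a TAF11-like gene on chromosome 5, with V5 at 5.31-fold and the mark in K450RK451R alone at 5.41-fold. The other was 885 bp before ANKRD30BL on chromosome 2, with V5 at 3.74-fold, the mark in K451R alone at 4.24-fold and another V5 peak 260 bp away.

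Coding exons held 6 members. FOXA1, the pioneer factor that opens chromatin for the androgen receptor, had V5 in exon 2 (chr14:38060970-38061350) at 5.97-fold. H3K9me2 was called there in WT alone, at 5.56-fold with a −log10 q of 3.94, and EHMT1 was not called. CDC27, a subunit of the anaphase-promoting complex, had 3 members, in exon 2 (V5 9.78-fold), exon 14 (7.12-fold) and intron 14 (7.14-fold). A peak of another V5 list lay 7466, 467 and 648 bp from them in that order. All 3 CDC27 sites had EHMT1, at 10.9-fold, 10.5-fold and 14.2-fold, and all had the mark in K451R.

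The remaining exonic members lay in genes of other functions. RRBP1, a ribosome-binding protein of the endoplasmic reticulum, had V5 at 6.56-fold in exon 3 and the mark in K451R at 7.05-fold. MUC6, a secreted mucin, had V5 at 3.79-fold in exon 31 and the mark in K450RK451R at 5.71-fold. A peak of another V5 list lay 833 bp from that site. Neither RRBP1, MUC6 nor TAF11L13 exon 1 had EHMT1. Of the 64 members in coding genes, 13 had EHMT1 (20.3%), 35 had the mark in K450RK451R (54.7%) and 36 held a tandem repeat.

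Lists of genes with known ties to H3K9 methylation or the prostate were too short for counts of this size to be read against the background. Counting genes that held a member or had one within 1 kb of their start, 66 of all 20090 protein-coding genes had a member (0.329%). Zinc finger genes had a member in 1 of 537 (ZNF717), families of chromosome ends and centromere flanks in 1 of 152 (ANKRD30BL), and neuronal targets of the repressor REST in 1 of 25 (NRXN3, a presynaptic adhesion protein). By the same count, no member was at the 53 clustered protocadherins, 415 olfactory receptors, 15 genes of the H3K9 methylation machinery or 11 prostate luminal and androgen receptor genes, a list without FOXA1. A gained site was at 21.9% of all protein-coding genes.

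Members marked in the double mutant line alone were led by chr16:33875664-33875832 (V5 9.13-fold, mark 7.4-fold, EHMT1 6.68-fold). They went on with a chromosome end on chromosome 19, at 47 bp from the gap, CUL4A intron 19, chr20:29805103-29805248 and chrX:61870778-61870948. CUL4A, a scaffold of ubiquitin ligases, had V5 at 9.89-fold and the mark at 5.28-fold, with 4 of 151 stretches unique. EHMT1 was called at 3 of these 5, on chromosomes 16, 20 and X, all within 2 kb of another V5 peak.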

How the data were processed

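ChIP-seq peak lists of 18 samples in 9 groups were used. Per the submitters' processing notes, FastQC 0.11.9, BWA 0.7.9a, SAMtools 1.2 and MACS2 2.1.0 were used by the authors on hg19. The deposited lists give for each peak the fold enrichment, −log10 of the p-value and of the q-value, the position and the summit. Fold enrichment is a ratio of pileup to local background, solved here with a constant added to both. Whether replicates were pooled for a list, and whether an input control was used, is not given in the sources used here. Peak names carry a lane tag except in the EHMT1 list. Depth was estimated by solving the pileup and background of each peak from the deposited fold enrichment and −log10 p. An assumed read extension of 100 bp and an effective genome of 2.7 Gb were used, and no input control was assumed. The highest pileup at a summit was 199 or 200 in each list.

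Peaks overlapped when they shared at least 1 bp. Where several peaks of a list met a member, the one with the highest fold enrichment was taken. Genes came from GENCODE 44 mapped to GRCh37, the sequences from the GRCh37 genome. Each window held 201 bases around the V5 summit. With 1 list per group no test was made. Shares carry 95% Wilson intervals, and a count of 0 allows up to 3 counts. Functions were tested on simulated data. Members, gene lists and alternatives were chosen with earlier results of these data known. The regions named are the 10 members with the highest V5 −log10 q, those called in all lines, those within 1 kb of a coding start or in a coding exon, the top member of each combination of lines, the 5 with the highest EHMT1 fold enrichment, the 5 with the highest V5 −log10 q in the K450RK451R line alone, and those at the edge of the rule. The sequences of 2 of these members are not reported here. Python 3.11.15, numpy 2.4.6, pandas 2.3.3, scipy 1.17.1, numba 0.67.0 and matplotlib 3.10.9 were used.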

Additional observations from a re-analysis of the deposited data

How the results depend on the processing

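No paired analysis was possible because a single list stood for both replicates of a group, so that no replicate could be left out either. Of 85 values under 12 alternatives set with the design and 2 added after seeing the data, 63 stayed within the main interval or within 1.5 times the main number, and 22 moved. With no other V5 peak allowed within 10 kb, 166 members were left, with the K450RK451R mark at 47.6%, EHMT1 at 27.7%, 56.6% within 1 Mb of a gap and 8.43% without a unique stretch. Without the K451R-line H3K9me2 list, 208 members were left and 63% of them had the K450RK451R mark. Among members farther than 1 Mb from a gap, which is an added alternative, the K450RK451R mark stood at 47.9% and EHMT1 at 23.4%. Wider limits gave 3.67% within 5 kb of a protein-coding start, 85.3% within 5 Mb of a gap and 38.8% with fewer than 1 in 2 stretches unique. The other 10 that moved concern results outside the 6 of the design. The share of gained sites that were members ran from 1.24% with the 10 kb distance to 15.2% at a V5 −log10 q of at least 5. No value could be computed for the distance to other V5 peaks under the 10 kb rule, which fixes it. The K450RK451R H3K9me2 list had the fewest estimated reads, and the part of depth in its calls was not tested.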
